A study of Arabidopsis thaliana with 115 samples.

Results

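The 10 genes described here encode enzymes of suberin biosynthesis in the Arabidopsis root. They were taken as a named list of gene IDs, GPAT5 (AT3G11430), GPAT7 (AT5G06090), CYP86A1 (AT5G58860), CYP86B1 (AT5G23190), KCS2 (AT1G04220), KCS20 (AT5G43760), ASFT (AT5G41040), FAR1 (AT5G22500), FAR4 (AT3G44540) and FAR5 (AT3G44550), from the 33016 gene IDs of the count files. All 10 had at least 10 counts in at least 3 libraries and so entered the tests, which covered 22883 genes. The study asked which genes each of 33 N-early response TFs regulates in root cells, with the TARGET assay, in which a TF fused to the glucocorticoid receptor (GR) enters the nucleus when dexamethasone (DEX) is added. Protoplasts (cells freed of their walls) from whole roots of wild-type (Col-0) seedlings aged 10 days took up a plasmid for the GR fusion of a single TF, or an empty vector (EV) that carried GR alone. Cells of every group, EV included, received 60 mM N (20 mM KNO3 plus 20 mM NH4NO3), 35 µM cycloheximide (CHX), which blocks translation, and 10 µM DEX, and were sorted for the fluorescent marker of the vector before RNA-seq. There were 97 libraries of TFs and 18 of EV, with 3 EV libraries in each of 6 batches. Each TF had 3 libraries in a single batch, except FBH4 and HAT22 with 2 each, and was compared with the EV of that batch.

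HSFB2A, ERF056 and GATA17 made up batch 1, and TGA1 was alone in batch 2. The 8 TFs of batch 3 were HYH, TGA4, BEE2, HB6, COL5, HHO3, CRF4 and GATA17L, and the 9 of batch 4 were C2H2, LBD38, bZIP3, NAC4, ZFP4, ASR3, ERF060, CDF1 and HHO2. MYB61, NAP, HAT22, TCP23, WRKY18 and FBH4 belonged to batch 5, and RAV1, DIV1, LBD37, ERF5, WRKY54 and VRN1 to batch 6. By the study's methods, the replicates of a TF or of EV were wells filled from a single transfection, and each well held cells with 2 TFs in vectors of different colour. The spread between replicates is thus one between wells, which may be technical, and the tests do not measure variation between transfections. The TFs of a batch share their EV libraries. The labels give no cell type beyond the root.

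Suberin is a polyester of fatty acids, glycerol and ferulate that is laid down between the plasma membrane and the wall of the endodermis and later of the periderm, where it limits the passage of water and solutes. Fatty acids are first elongated, for which KCS2 and KCS20 are ketoacyl-CoA synthases that lead to very-long-chain acids. CYP86A1 and CYP86B1 are cytochromes P450 that add a hydroxyl group at the end of long-chain and very-long-chain acids, respectively, and FAR1, FAR4 and FAR5 are reductases that turn acyl groups into primary alcohols. GPAT5 and its relative GPAT7 are glycerol-3-phosphate acyltransferases that join the acyl chains to glycerol, and ASFT transfers ferulate to hydroxy acids and alcohols. Export by ABCG transporters and control by MYB and NAC factors, among them MYB41, MYB9, MYB107 and MYB39, complete the pathway.

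GPAT7 passed the test with more TFs than any other of the 10 genes and had the largest rise, with MYB61, an R2R3-MYB factor. Factors of this family are known to bind AC elements, so these are shown first. In the 500 bp before the annotated start of each gene (TAIR10.1, RefSeq), 3 words known as AC elements were searched on both strands, namely ACCTACC, then ACCAACC, and lastly ACCAAAC. No match overlapped another. Each site is given with 10 bases on either side, on the plus strand, with the motif in capitals.
GPAT5, chr3:3595207-3595233: agaaagtctaACCAAACtaatagaaac
GPAT5, chr3:3595227-3595253: tagaaactgaACCAAACaaaaatgttc
GPAT5, chr3:3595339-3595365: attaagctaaACCAAACcgaaaataaa
GPAT7, chr5:1834991-1835017: aatgactccaACCAACCttataaaaac
The single site of GPAT7 lay 46 bases before its start, and those of GPAT5 lay 477, 457 and 345 bases before its start. No site was found in the windows of the other 8 genes. Of 27443 protein-coding genes, 21% held at least 1 of the 3 words in a window of this length, 5.24% held ACCAACC, 15.1% ACCAAAC and 2.12% ACCTACC. The core of the G-box, ACGTG, occurred before 7 of the 10 genes, against 35.5% of all genes, and TGACG, the core bound by TGA factors, before 3, against 32%. CAACA, a core that RAV1 is known to recognise, was before 9 of the 10 and before 73.3% of all genes. Of the other words searched, the W-box core TTGAC was before 8 of the 10 (67.4% of all genes). The HD-Zip core AATNATT was before 5 (49.5%) and the GCC box GCCGCC before 0 (4.12%). The matches describe the letters only.

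On the TAIR10.1 assembly, 7 of the 10 genes are on chromosomes 1 and 5 and the other 3 on chromosome 3, where FAR4 (chr3:16123426-16128030, plus strand) and FAR5 (chr3:16137576-16142270, plus strand) are neighbours. GPAT7 lies at chr5:1835047-1837037, plus strand, and ASFT at chr5:16431304-16433305, plus strand. In their exons, KCS2 and KCS20 shared 4 stretches of 50 bases, and 102 such stretches of FAR5 also occurred elsewhere, 97 of them between genes. FAR1 overlaps the gene AT5G22505 on the other strand over 1310 bp, and that gene had 0 counts in all libraries. KCS2 overlaps the non-coding RNA gene AT1G04247 on the other strand over 2302 bp. FAR4 likewise overlaps the non-coding RNA gene AT3G06845 over 198 bp. Neither of these non-coding genes is in the count files. KCS2 also overlaps AT1G04210 over 41 bp, and ASFT overlaps AT5G41050 over 63 bp. The library kit does not mark the strand, and how reads in overlaps or with several matches were counted is not given in the sources used here. The level of FAR1 is therefore uncertain, and so are those of KCS2, FAR4 and ASFT as far as their overlaps reach.

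The level of the genes in EV cells was far higher in batches 1 to 4 than in batches 5 and 6. Values are in CPM, the count of a gene scaled to a common library size after TMM, which corrects for the composition of libraries. In the 12 EV libraries of batches 1 to 4, CYP86A1 had 239 to 528 CPM, whereas in the 6 of batches 5 and 6 it had 0 to 1.36 CPM, with no more than 6 counts in any of the 40 libraries of those batches and 0 counts in 21. KCS2 had 119 to 246 CPM in the first set and 0.67 to 4.55 CPM in the second, a ratio of means of 61.1. KCS20, at 104 to 194 CPM and 24.8 to 58.2 CPM, had the smallest ratio, 4.16. The other genes had ratios between those of GPAT5 (6.7) and FAR5 (43.1), and the ranges of the 2 sets overlapped for FAR1 alone. Fewer cells of a type and less RNA per cell cannot be told apart in such libraries.

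Per kb of exon, the order of the means in the EV of batches 1 to 4 was CYP86A1 (174 ± 44 CPM per kb, mean ± SD over 12 libraries), KCS2 (84.2 ± 17.3), KCS20 (65.2 ± 14.4), ASFT (45.1 ± 19.9), GPAT5 (41.4 ± 7.71), GPAT7 (30.8 ± 6.64), FAR5 (14.1 ± 7.74), CYP86B1 (12.3 ± 5.55), FAR4 (6.23 ± 2.76) and FAR1 (1.32 ± 0.86). The ranges of CYP86A1 and KCS2 did not overlap, at 128 or more against 120.1 or less. Nor did those of FAR4 and FAR1, at 3.18 or more against 2.53 or less. The ranges of all other neighbours in the order overlapped. In batches 5 and 6 the order changed, with KCS20 first at 11.2 to 26.2 CPM per kb, ASFT and GPAT5 next, and CYP86A1 among the lowest at 0 to 0.732 CPM per kb.

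**Figure D1:**
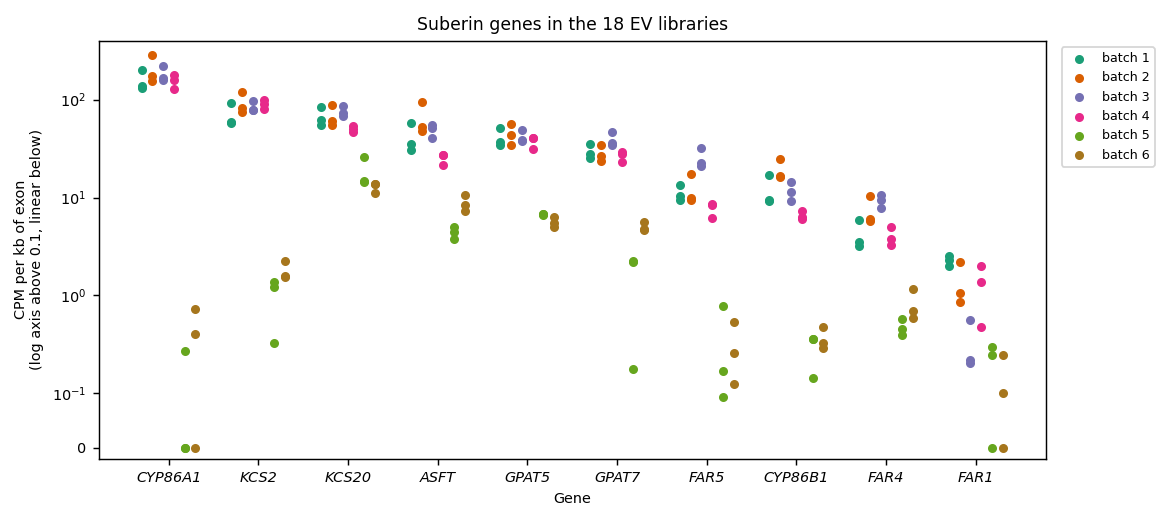
The level of each suberin gene in the 18 EV libraries, in CPM per kb of exon on an axis that is logarithmic above 0.1 and linear below, with points coloured by batch and genes ordered by their mean in batches 1 to 4. The points of batches 5 and 6 lie below those of batches 1 to 4 for every gene but FAR1, and CYP86A1 goes from the highest gene in batches 1 to 4 to 0 to 0.732 CPM per kb in the others.

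The gap was not shared by the summed markers of the endodermis. The summed level of the 10 genes was 704 to 1463 CPM in the EV of batches 1 to 4 and 57.3 to 91.5 CPM in that of batches 5 and 6. The 9 endodermis markers (CASP1 to CASP5, which build the Casparian strip, ESB1, PER64, MYB36 and SCR) summed to 26.2 to 127 CPM and 69.6 to 122 CPM, of which MYB36 and SCR made up most in batches 5 and 6, and CASP5 and ESB1 were below 1 CPM in every EV library. The tested relatives of the suberin genes that make cutin summed to 420.4 to 742 CPM and 10.2 to 21.4 CPM, and regulators of suberin to 343 to 703 CPM and 64.3 to 139 CPM. Library totals were 6756385 to 45372240 counts in batches 1 to 4 and 1542961 to 9697384 in batches 5 and 6. Markers of the phloem were present in the EV of both sets (23.9 to 145 CPM and 80.5 to 102 CPM), those of the leaf were at 1.1 to 5.35 CPM and 1.4 to 1.82 CPM and, of the cortex markers, CO2 was at or near 0. Other markers parted as the suberin genes did or the other way. The endodermis marker SCR was at 2.76 to 9.36 CPM in batches 1 to 4 and 11.4 to 25.9 CPM in batches 5 and 6. The cortex marker PEP was at 12.9 to 19.4 CPM in batches 1 to 4 and 1.68 to 6.15 CPM in batches 5 and 6, xylem markers at 12.4 to 27.1 and 1.16 to 11.1 CPM, root cap markers at 0.212 to 1.34 and 3.07 to 11.9 CPM, and genes of ferulate supply at 2649 to 10259.8 and 573 to 877 CPM. The part of such cells in the gap was not tested. In DIV1 replicate 3 the 10 most abundant genes held 49.5% of the counts, against at most 37.5% in any other library, and the calls with DIV1 are given with and without it. Every TF was highest in its own libraries, for 33 of 33 TFs.

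**Figure D2:**
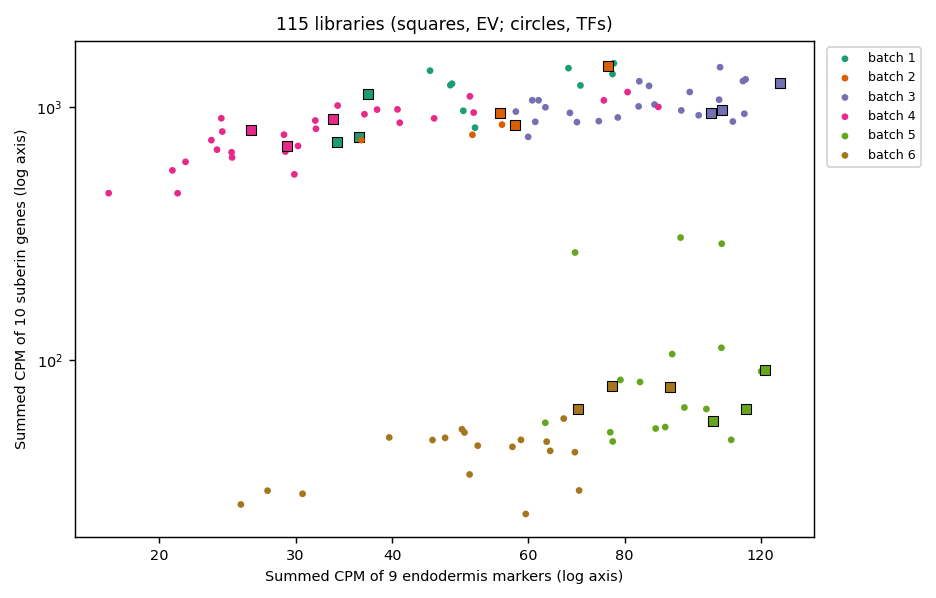
The summed CPM of the 10 suberin genes (vertical, logarithmic axis) against the summed CPM of 9 endodermis markers (horizontal, logarithmic axis) in all libraries, with EV as squares, TFs as circles and batches by colour. Libraries of batches 5 and 6 lie at or below 305 CPM of suberin genes, within the range of endodermis markers of the others.

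Over the 33 TFs, 65 of the 330 pairs of gene and TF (19.7%) differed from the EV at an FDR under 0.05, the FDR being the p-value of edgeR's quasi-likelihood test after Benjamini-Hochberg adjustment over all genes tested with that TF. Of these pairs, 29 were higher and 36 lower, and 116 of the 330 had an unadjusted p under 0.05, as did 20.4% of pairs over all genes. At the FDR threshold, 9.58% of pairs over all genes passed, 4.59% higher and 4.99% lower. In 60 of the 65 pairs the libraries of the TF and the EV did not overlap, which held for 93.2% of the pairs that passed over all genes. The pairs fell on 21 TFs, of which 7 passed for a single gene. CYP86B1, the only gene that passed with HYH or ASR3, is on the study's list of genes that respond to CHX. The study left such genes out of its lists of TF targets. By gene, GPAT7 passed with 13 TFs (5 higher, 8 lower), ASFT with 12 (5 and 7), CYP86B1 with 8 (5 and 3), FAR5 with 7 (4 and 3), KCS20 with 6 (2 and 4), KCS2 with 5 (1 and 4), FAR4 with 5 (2 and 3), GPAT5 with 4 (2 and 2), CYP86A1 with 3 (1 and 2) and FAR1 with 2, both higher. By batch, 15 of 30 pairs were higher and 0 lower in batch 1 (all genes, 7.99% and 10.9%), where 1 was higher and 3 were lower of 10 in batch 2 (9.01% and 10.7%). Batch 3 gave 1 higher and 0 lower pairs of 80 (1.37% and 2.11%) and batch 4 gave 4 higher and 13 lower of 90 (3.86% and 4.05%). In batch 5, 7 pairs were higher and 1 lower of 60 (5.96% and 3.99%), and in batch 6, 1 was higher and 19 were lower of 60 (6.18% and 7.32%). The TFs of a batch were set against the same EV libraries, so these counts are not independent of each other. The single gene that was higher with HAT22, TGA1 or DIV1 made up about the share of all genes that were higher with those TFs (10.4%, 9.01% and 9.89%), and is no result about suberin genes as a group.

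**Figure D3:**
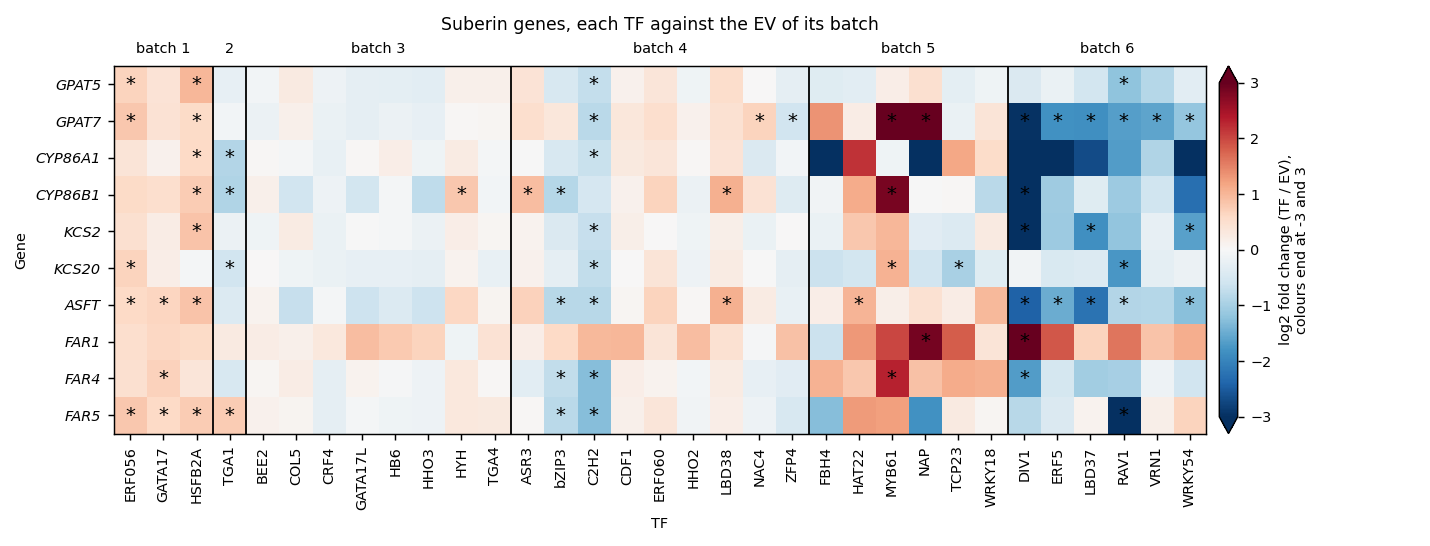
The log2 fold change of each suberin gene (rows) with each TF (columns, grouped by batch) against the EV of its batch, in colour from blue (lower) to red (higher), with colours ending at -3 and 3 and asterisks at the 65 pairs with an FDR under 0.05. Columns with mostly higher values include those of batch 1, LBD38 and ERF060 in batch 4, and MYB61 and HAT22 in batch 5. Those with mostly lower values include C2H2, bZIP3 and the TFs of batch 6. Deep colours with no asterisk in batches 5 and 6 belong to genes with few counts, such as CYP86A1.

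In batch 1, the genes were higher with HSFB2A, a class B heat shock factor, and with the AP2 factor ERF056. HSFB2A passed for 7 of the 10 (all genes, 9.68% higher), among them GPAT5 (0.99 ± 0.19, log2 fold change ± SE), ASFT (0.87 ± 0.22), KCS2 (0.85 ± 0.18), FAR5 (0.77 ± 0.22) and CYP86A1 (0.59 ± 0.20), and the median log2 fold change of the 10 was 0.68, against 0.03 over all genes. KCS20 was at -0.05 ± 0.19 and did not pass. In the libraries, GPAT5 had 162, 145 and 183 CPM with HSFB2A and 103, 73.6 and 68.3 CPM with EV, in replicates 1, 2 and 3. The lowest HSFB2A library thus lay above the highest EV library. ERF056 passed for 5 genes (8.02% of all genes higher), GPAT7 (0.82 ± 0.19), FAR5 (0.80 ± 0.22), KCS20 (0.67 ± 0.19), GPAT5 (0.66 ± 0.19) and ASFT (0.60 ± 0.22). GATA17 passed for FAR4, ASFT and FAR5 (6.28%), in each with libraries that overlapped those of EV.

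EV replicate 1 of batch 1 was the highest EV library for 9 of the 10 genes, for ASFT at 104 CPM against 55.4 and 63.8 CPM in the others. Without it, 8 genes passed with HSFB2A, 9 with ERF056 and 6 with GATA17, whereas without EV replicate 2 the counts were 4, 2 and 0, and without EV replicate 3 4, 2 and 0, all of them higher. Without replicate 2 of every group 2, 0 and 0 genes passed, and without replicate 3 2, 1 and 0. Endodermis markers moved in the same direction: 5 of 9 were higher with HSFB2A, 3 with ERF056 and 5 with GATA17, and their sum was 70.1 to 77.5, 44.8 to 47.8 and 49.5 to 67.7 CPM against 34 to 37.2 CPM with EV. Xylem markers were lower for 2 of 3 with HSFB2A, 2 of 3 with ERF056 and 1 of 3 with GATA17, and phloem markers for 2 of 2 with HSFB2A, 0 of 2 with ERF056 and 1 of 2 with GATA17. With each of the 3 TFs, 1 of 2 root cap markers was higher. The part of such cells in the result was not tested.

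In batch 4, the zinc finger factor C2H2 (AT5G10970) lowered 8 of the 10 genes, against 8.69% of all genes, with a median log2 fold change of -0.73 against 0.00 over all genes. FAR5 (log2 fold change -1.29, SE 0.24, FDR = 1.61e-05) and FAR4 (log2 fold change -1.27, SE 0.22, FDR = 4.48e-06) fell most. FAR5 had 10.5, 9.32 and 8.28 CPM with C2H2 and 25.4, 24.9 and 18.4 CPM with EV. FAR4 had 5.52, 4.96 and 3.94 CPM with C2H2 and 14.5, 9.54 and 11 CPM with EV. All 3 C2H2 libraries lay below all 3 EV libraries for both reductases. The other 6 genes that passed fell by 0.66 (CYP86A1) to 0.84 (ASFT) on the log2 scale. CYP86B1 was at -0.50 ± 0.26 and FAR1 at 0.98 ± 0.41, and neither passed. Leaving out replicate 2 of every group left 3 genes, FAR4 and FAR5 among them. Of the 9 endodermis markers, CASP1 and SCR were lower and none higher, with sums of 17.2 to 21.1 CPM against 26.2 to 33.5 CPM, and the part of this in the result was not tested.

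bZIP3 lowered 4 genes (6.83% of all genes lower), CYP86B1 (-0.86 ± 0.27, log2 fold change ± SE), ASFT (-0.83 ± 0.23), FAR5 (-0.80 ± 0.23) and FAR4 (-0.74 ± 0.22), and without replicate 3 of every group none passed. Without replicate 2 of every group or EV replicate 1, 2 were lower. LBD38, a LOB-domain factor of the N response, raised 2 genes (2.1%). ASFT had 105, 90.3 and 94.9 CPM with LBD38 and 49.9, 38.8 and 49.7 CPM with EV (log2 fold change 1.07, SE 0.22, FDR = 0.000705). CYP86B1 had 35.3, 31.3 and 28.5 CPM with LBD38 and 16.9, 14 and 14.7 CPM with EV (log2 fold change 1.06, SE 0.25, FDR = 0.00505). The ranges were apart for both, and both were lost without replicate 2 of every group, at FDR values of 0.106 and 0.208. With LBD38, 4 of the 9 endodermis markers (CASP1 to CASP4) were higher and their sum was 75.2 to 88.5 CPM against 26.2 to 33.5 CPM, whose part was not tested. Single genes passed with NAC4 (GPAT7, 0.66, higher in 3.37% of all genes), ASR3 (CYP86B1, 0.93, 1.74%) and ZFP4 (GPAT7, -0.57, lower in 5.31%). The call of NAC4 was lost in 3 of the 13 alternatives (without replicate 1 or 2 of every group or EV replicate 2), that of ASR3 in 3 (without replicate 2 or EV replicate 2 or 3) and that of ZFP4 in 6 (without any of the 3 replicates, EV replicate 1 or 3, or the filter). In batch 3, HYH raised CYP86B1 by 0.81 (1.98% of all genes higher), and no other TF of that batch passed for a suberin gene. The HYH call was lost without replicate 2, without EV replicate 2 or 3 and with no filter.

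TGA1 in batch 2 moved the genes in both directions. CYP86A1 (-0.87 ± 0.20, log2 fold change ± SE), CYP86B1 (-0.91 ± 0.25) and KCS20 (-0.56 ± 0.19) were lower (10.7% of all genes lower) and FAR5 (0.75 ± 0.21) was higher (9.01%). CYP86A1, the hydroxylase with the highest level, had 213, 199 and 209 CPM with TGA1 and 528, 322 and 291 CPM with EV. The TGA1 libraries were close together and below all EV libraries, of which replicate 1 stood far above the other 2. With the EV of batch 2 alone in the fit, only CYP86B1 passed. Without EV replicate 1, CYP86A1 alone was lower and FAR5 alone was higher. FAR5 did not pass in 5 of the 13 alternatives, which were that fit and those without replicate 2 or 3 of every group or of EV. Endodermis markers summed to 36.5 to 55.5 CPM with TGA1 and 55.1 to 76.1 CPM with EV. All 3 root hair markers were lower (8.19 to 9.72 against 37.1 to 48.6 CPM), as were both phloem markers (22.1 to 26.2 against 34.7 to 38 CPM), and the part of these cells was not tested.

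**Figure D4:**
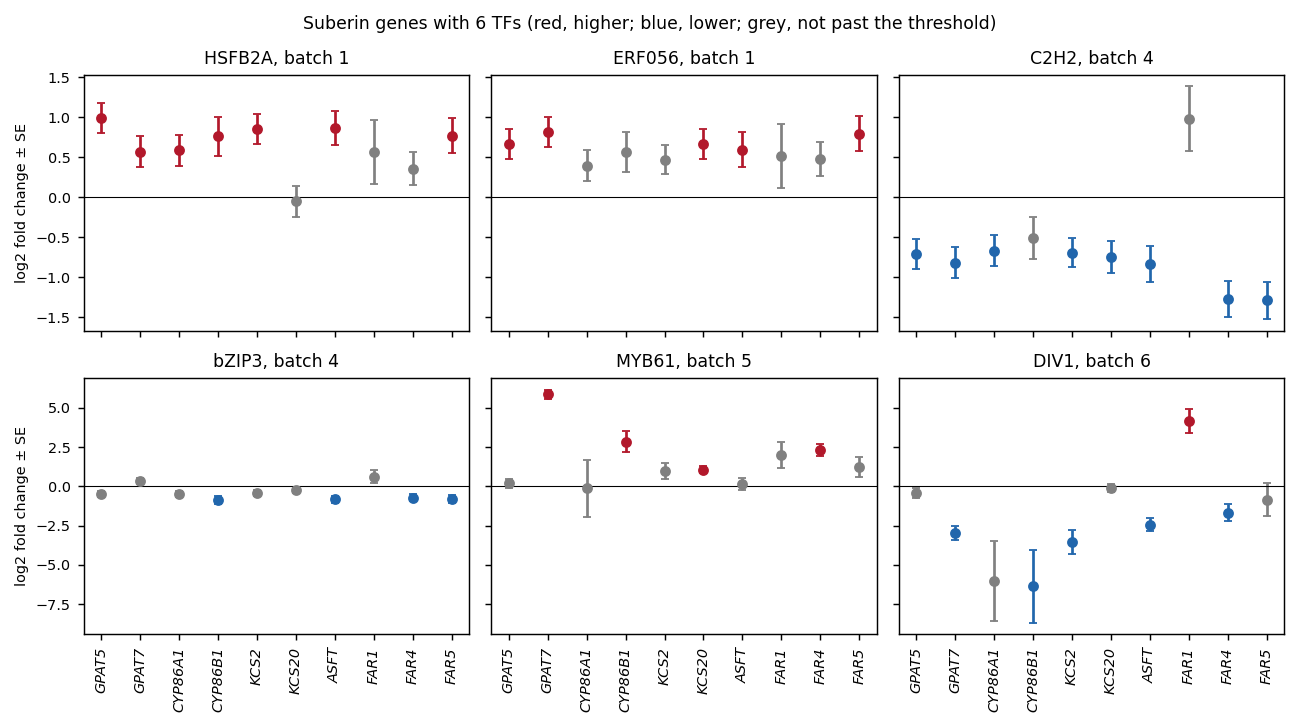
The log2 fold change of each suberin gene against the EV of the batch, with its SE, for HSFB2A, ERF056, C2H2, bZIP3, MYB61 and DIV1, in red where higher, blue where lower and grey where the FDR was 0.05 or more. The upper row spans changes of about 1 on the log2 scale, and the lower row has its own, wider axis, on which GPAT7 with MYB61 lies at 5.85 and FAR1 with DIV1 at 4.15. CYP86A1 and CYP86B1 had 0 counts in all DIV1 libraries, so their points there depend on the fit and give no fold.

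The largest rise of any suberin gene was that of GPAT7, an acyltransferase, with MYB61 in batch 5. GPAT7 had 151, 173 and 149 CPM in the MYB61 libraries and 4.14, 4.19 and 0.335 CPM in the EV libraries (log2 fold change 5.85, SE 0.30, FDR = 1.07e-28). Every MYB61 library was far above the highest EV library, and above the 43.6 to 86.8 CPM of the EV of batches 1 to 4. NAP, a NAC factor of senescence, also raised GPAT7, to 38, 33.3 and 34.1 CPM (log2 fold change 3.69, SE 0.33, FDR = 3.35e-15). Both kept their call under all 13 alternatives, with log2 fold changes of 5.26 to 6.48 for MYB61 and 3.06 to 4.27 for NAP. The other 4 TFs of batch 5 share these EV libraries, and GPAT7 passed with none of them. GPAT7 had 3.39, 2.02 and 0 CPM with TCP23, 4.09 and 2.05 CPM with HAT22 and 2.72, 5.97 and 3.59 CPM with WRKY18. With FBH4 it had 7.98 and 4.54 CPM, both above all EV libraries (log2 fold change 1.35, SE 0.48, FDR = 0.0793).

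MYB61 raised 4 of the 10 genes (6.94% of all genes higher). FAR4, an alcohol-forming reductase, had 9.15, 5.4 and 5.36 CPM with MYB61 and 1.16, 1.68 and 1.34 CPM with EV (log2 fold change 2.30, SE 0.40, FDR = 4.32e-06). KCS20 had 91, 90.8 and 74.4 CPM with MYB61 and 58.2, 32.1 and 32.5 CPM with EV (log2 fold change 1.05, SE 0.22, FDR = 0.000208), and lost its call without replicate 2 of every group (FDR = 0.114). For both genes the 3 MYB61 libraries lay above all EV libraries. CYP86B1 rose from 0.829, 0.838 and 0.335 to 4.49, 5.57 and 3.91 CPM, at 10 counts in all in the EV libraries and 80 with MYB61. ASFT, at 8.51, 9.45 and 9.07 CPM against 9.12, 8.1 and 6.87 CPM, and GPAT5, at 16.7, 15.2 and 14.2 CPM against 13.3, 13.7 and 13.6 CPM, did not pass. The summed level of the 10 genes was 267 to 305 CPM with MYB61 and 57.3 to 91.5 CPM with EV, most of it GPAT7 and KCS20. Endodermis markers summed to 69 to 107 CPM and 104 to 122 CPM, with CASP1 and PER64 higher and MYB36 lower. Besides GPAT7, NAP raised FAR1 (4.87% of all genes higher), from 0, 0.558 and 0.67 to 2.58, 4.32 and 1.76 CPM (log2 fold change 2.88, SE 0.76, FDR = 0.00549), which was lost without EV replicate 1, without replicate 2 of every group and with batches 5 and 6 fitted apart. With NAP, 2 of the 3 root hair markers were higher (20.9 to 27.6 against 4.14 to 8.1 CPM), and the part of such cells was not tested.

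HAT22 and TCP23 each passed for 1 gene. ASFT had 19.6 and 12.5 CPM in the 2 HAT22 libraries and 9.12, 8.1 and 6.87 CPM with EV (log2 fold change 1.02, SE 0.38, FDR = 0.0491, 10.4% of all genes higher). The 2 libraries differed more from each other than the lower of them from the EV, and 8 of the 13 alternatives lost the call, with FDR values up to 0.411. KCS20 had 23, 18.4 and 21.2 CPM with TCP23 and 58.2, 32.1 and 32.5 CPM with EV (log2 fold change -0.97, SE 0.25, FDR = 0.00479, 4.11% of all genes lower). EV replicate 1 stood above the other 2 EV libraries, and without it the call was lost. It was also lost without replicate 1 or replicate 2 of every group and with batches 5 and 6 fitted apart.

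**Figure D5:**
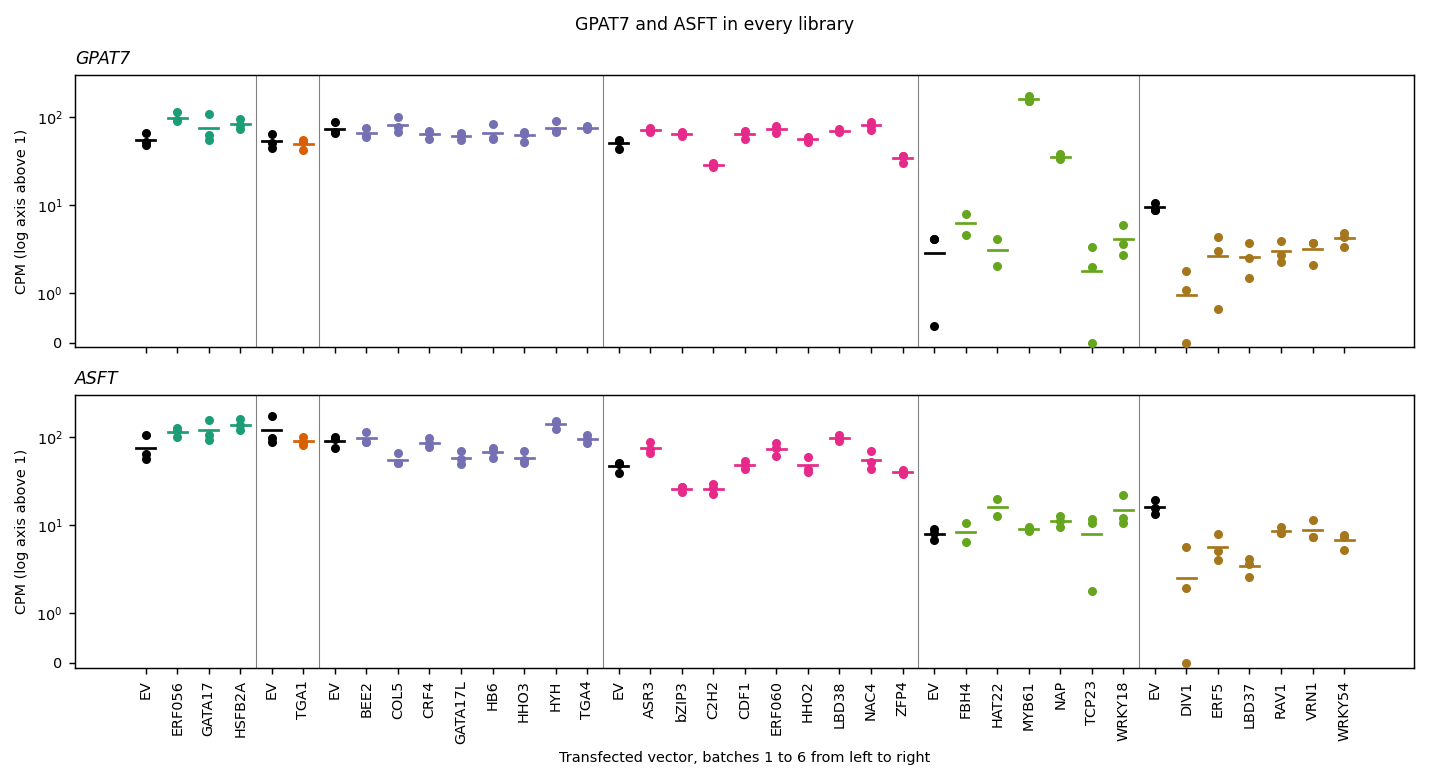
GPAT7 and ASFT in each library, in CPM on an axis that is logarithmic above 1 and linear below, by transfected vector from batch 1 on the left to batch 6 on the right, with a line at the mean of each group and EV in black. GPAT7 stands out with MYB61 (149 to 173 CPM) and NAP (33.3 to 38.0 CPM) in batch 5, and in batch 6 the points of all 6 TFs lie below the 3 EV points for both genes.

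In batch 6, every call but that of FAR1 was lower than EV. DIV1, an MYB-related factor, lowered 5 genes (15.4% of all genes lower) and raised FAR1 (9.89% higher). GPAT7 had 1.8, 1.09 and 0 CPM with DIV1 and 8.87, 10.6 and 8.72 CPM with EV (log2 fold change -2.97, SE 0.47, FDR = 3.52e-07). ASFT had 1.94, 5.6 and 0 CPM with DIV1 and 15.5, 19.4 and 13.3 CPM with EV (log2 fold change -2.43, SE 0.41, FDR = 1.76e-06). The DIV1 libraries lay below the EV libraries for both, with replicate 3 at 0. KCS2, an elongase, had 5, 0 and 0 counts with DIV1 and 20, 17 and 17 with EV, and FAR4 fell from 3.41, 2.05 and 1.71 to 0.833, 0.311 and 1.33 CPM. CYP86B1 had 0 counts in the 3 DIV1 libraries against 3, 6 and 4 with EV, which is at least 4.79-fold lower with a floor of 3 counts over the group. FAR1 rose from 0.227, 0.559 and 0 to 1.94, 4.82 and 9.32 CPM (log2 fold change 4.15, SE 0.77, FDR = 1.02e-05), with its highest value in replicate 3.

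Without DIV1 replicate 3, FAR1 was at 3.60 (FDR = 0.000446), GPAT7 at -2.68 (FDR = 8.73e-06) and ASFT at -2.12 (FDR = 4.65e-05), KCS2 and FAR4 passed as well, and CYP86B1 no longer did (FDR = 0.0622). GPAT5 (-0.43 with all libraries and -0.24 without replicate 3) and KCS20 (-0.12 and 0.16, with a change of sign) passed in neither fit. Over the 13 alternatives, CYP86B1 was lost in 7 and FAR4 in 5. With DIV1, 3 of 9 endodermis markers were lower (4 without replicate 3), at a sum of 39.7 to 59.6 CPM against 69.6 to 91.7 CPM, and the phloem markers SUC2 and APL summed to 257 to 311 CPM against 80.5 to 102 CPM, with SUC2 higher in both fits. Replicate 3 had the highest sum of both lists among the DIV1 libraries. The part of either in the result was not tested.

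RAV1, a B3-domain factor, lowered 5 genes (12.2% of all genes lower). KCS20 had 9.53, 8.38 and 7.58 CPM with RAV1 and 30.5, 30.4 and 24.8 CPM with EV (log2 fold change -1.74, SE 0.28, FDR = 5.00e-07). GPAT7 was at 3.91, 2.76 and 2.3 CPM against 8.87, 10.6 and 8.72 CPM (log2 fold change -1.65, SE 0.37, FDR = 0.000304). GPAT5 was at 3.57, 6.54 and 3.21 CPM against 12.5, 10.1 and 11 CPM (log2 fold change -1.21, SE 0.33, FDR = 0.00384). RAV1 libraries were below all EV libraries for all 3 genes, and KCS20 kept its call under the 13 alternatives, whereas GPAT7 was lost without replicate 2 (FDR = 0.0852) and GPAT5 without replicate 1 (FDR = 0.0568). ASFT, at -0.88 ± 0.33, passed too. FAR5 had 0 counts in the 3 RAV1 libraries and 7, 2 and 4 with EV, at least 5.77-fold lower with a floor of 3 counts over the group. Endodermis markers summed to 25.5 to 30.6 CPM with RAV1 against 69.6 to 91.7 CPM, with CASP1, MYB36 and SCR lower, and both phloem markers were lower as well. Their part was not tested. The calls of ASFT and FAR5 were lost in 5 and 4 of the 13 alternatives. Without replicate 1 or replicate 2 of every group, 2 of the 10 genes were lower.

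LBD37, the relative of LBD38, lowered ASFT, GPAT7 and KCS2 (6.28% of all genes lower). ASFT had 4.17, 3.59 and 2.61 CPM with LBD37 (log2 fold change -2.20, SE 0.37, FDR = 5.92e-06) and GPAT7 had 3.69, 2.51 and 1.51 CPM (log2 fold change -1.84, SE 0.37, FDR = 0.000158), both under the EV values given for DIV1. ERF5 lowered GPAT7 and ASFT (3.86%), GPAT7 to 4.34, 3.02 and 0.686 CPM (log2 fold change -1.82, SE 0.39, FDR = 0.000841) and ASFT to 3.99, 8 and 5.14 CPM (log2 fold change -1.49, SE 0.36, FDR = 0.00314). WRKY54 lowered ASFT, GPAT7 and KCS2 (5.31%), with ASFT at 7.28, 7.81 and 5.2 CPM (log2 fold change -1.26, SE 0.35, FDR = 0.00817) and GPAT7 at 3.38, 4.83 and 4.41 CPM (log2 fold change -1.16, SE 0.35, FDR = 0.0203). VRN1 lowered GPAT7 alone (0.839%), to 3.76, 2.12 and 3.69 CPM (log2 fold change -1.58, SE 0.40, FDR = 0.0108). GPAT7 thus passed with all 6 TFs of the batch, each against the same 3 EV libraries of 8.87, 10.6 and 8.72 CPM. Without EV replicate 2 the GPAT7 calls of VRN1 (FDR = 0.0792) and WRKY54 (FDR = 0.108) were lost, as was ASFT with WRKY54 (FDR = 0.0695). Without replicate 2 of every group the GPAT7 calls of LBD37, ERF5, VRN1 and WRKY54 were lost (FDR = 0.0630 to 0.680). With batches 5 and 6 fitted apart, GPAT7 was lost with VRN1 (FDR = 0.126) and WRKY54 (FDR = 0.155). GPAT7 with WRKY54 was also lost without replicate 1 of every group (FDR = 0.0782). ASFT with WRKY54 was also lost without replicate 2 (FDR = 0.123) or replicate 3 (FDR = 0.0974) of every group. KCS2 was lost in 4 of the 13 alternatives with LBD37 and in 8 with WRKY54. The call of ASFT with LBD37 was kept under the 13 alternatives. The sum of the endodermis markers was also lower than in EV in the libraries of ERF5 (45.1 to 50.4 CPM), VRN1 (49.6 to 58.7 CPM) and WRKY54 (63.4 to 66.7 CPM), against 69.6 to 91.7 CPM. It was at 57.3 to 69.9 CPM with LBD37. Of the 9 markers, 2 were lower with ERF5, 1 with VRN1, 3 with WRKY54 and 1 with LBD37, and 0 were higher. With ERF5 the phloem markers summed to 151 to 162 CPM against 80.5 to 102 CPM, with SUC2 higher. The part of such cells was not tested.

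For 12 TFs no suberin gene passed. They were BEE2, COL5, CRF4, GATA17L, HB6, HHO3 and TGA4 of batch 3, CDF1, ERF060 and HHO2 of batch 4, and FBH4 and WRKY18 of batch 5. With BEE2, CRF4, HB6 and TGA4, 0 of the 10 genes had an unadjusted p under 0.05, and with the other 8 between 1 and 3 did. DESeq2 called 1 gene each with COL5, HHO3, FBH4 and WRKY18 and 0 with the other 8. The share of all genes that passed, in either direction, was 0.891% with BEE2, 3.97% with COL5, 0.708% with CRF4, 4.58% with GATA17L, 6.54% with HB6, 2.91% with HHO3, 1.39% with TGA4, 7.04% with CDF1, 4.72% with ERF060, 8.59% with HHO2, 6.29% with FBH4 and 5.92% with WRKY18. With ERF060, whose 10 log2 fold changes had a median of 0.37, 6 genes were higher when the fit was made with the libraries of ERF060 and its EV alone.

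Genes around the core pathway were followed with fixed lists, and the share of their pairs that passed is given beside the 9.58% of all genes. The 6 export genes passed in 18.7% of pairs (18 higher, 19 lower), and all 6 passed with at least 1 TF. ABCG16, an ABC transporter, was higher with 6 TFs and lower with 5. It reached a log2 fold change of 5.45 with MYB61 (SE 0.31, FDR = 1.49e-25), from 2.32, 5.86 and 3.69 CPM with EV to 143, 181 and 163 CPM. ABCG1 was higher with 3 and lower with 7 TFs, and ABCG2 was lower with 3, C2H2 (-1.01), DIV1 (-1.28, not past the threshold without its replicate 3, FDR = 0.084) and WRKY54 (-1.89). The EV level of ABCG2 was 220 to 422 CPM in batches 1 to 4 and 2.23 to 6.15 CPM in batches 5 and 6, to which DIV1 and WRKY54 belong. ABCG6 was higher with ERF056, HSFB2A and LBD38 and lower with C2H2 and 3 other TFs. ABCG6, ABCG20, MYB39 and KCS1, like CYP86B1 among the 10 core genes, are on the study's list of genes that respond to CHX.

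The 8 regulators of suberin passed in 17.4% of pairs (16 higher, 30 lower). MYB41, an activator of the whole pathway, was higher with 7 TFs and lower with 7, within log2 fold changes of -0.99 and 0.76. MYB9, an activator of suberin genes in the seed coat and root, was lower with 7 TFs and higher with 0. MYB39 was higher with 4 and lower with 5, MYB93 higher with 2 and lower with 4, and NAC058 higher with 3 and lower with 4. C2H2 lowered 6 of the 8, by -0.62 (MYB39) to -1.48 (MYB107), and DIV1 lowered 5, among them MYB93, with 8, 0 and 5 counts against 33, 39 and 22 with EV, NAC058, with 5, 0 and 0 against 16, 23 and 13, and MYB107, with 0 counts in all 3 libraries against 8, 11 and 5. All 5 were lower without DIV1 replicate 3 as well. With HSFB2A, under which 7 core genes were higher, NAC058 (1.14) and MYB93 (0.51) were higher and MYB39 (-1.91), MYB9 (-1.02) and MYB41 (-0.67) lower. MYB53 and MYB92 passed with no TF.

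The 12 genes listed under ferulate supply, from phenylalanine ammonia-lyase onward, passed in 30.6% of pairs (29 higher, 92 lower). The list also counts FACT, an acyltransferase that does not itself make ferulate and that passed with NAC4 alone. COMT1, a methyltransferase, was lower with 14 TFs and 4CL1, a coumarate-CoA ligase, with 13. MYB61 raised 10 of the 12, with log2 fold changes of 4.09 for CCOAOMT1, 3.98 for PAL2, 3.95 for PAL1 and 3.95 for PAL4. PAL1 went from 128, 124 and 85.8 CPM with EV to 1860.4, 1731 and 1593 CPM with MYB61. ERF056, under which 5 core genes were higher, lowered 10 of the 12 (10.6% of all genes lower), from -0.48 (PAL1) to -1.28 (CYP98A3), as did TGA1. HSFB2A lowered 7 (12.2% of all genes lower) and C2H2 lowered 8, while ALDH2C4, which makes ferulate from its aldehyde, was higher with C2H2 (1.59). DIV1 and ERF5 lowered none of the 12, nor did many other TFs, among them VRN1 and WRKY54 of the same batch. The 7 genes of general fatty acid elongation passed in 7.36% of pairs (9 higher, 8 lower), among them KCS1 with 6 TFs higher and 2 lower, of which MYB61 gave 2.14.

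How the 10 genes varied with each other was described by their correlations. Over log2 CPM centred on the mean of each batch, the 45 correlations between genes had a median r of 0.68 in the 75 libraries of batches 1 to 4 (-0.13 to 0.93) and 0.23 in the 40 of batches 5 and 6 (-0.52 to 0.66). CYP86A1 had a median of 0 counts in batches 5 and 6, CYP86B1 of 3 and FAR1 and FAR5 of 4, so the second set of values rests in part on genes with hardly any counts and is not compared with the first. Libraries of a batch share cells, EV and depth, and these values are a description. Outside the list, the genes whose level followed the mean of the 10 standardized genes most closely were AT4G36610 (r = 0.75 over all libraries, of 13384 genes at 5 CPM or more), KCS1 (0.74), MYB52 (0.73), AT2G45300 (0.72) and YSL2 (0.72). Within batches 1 to 4, their r was 0.64 (AT2G45300) to 0.89 (MYB52), and within batches 5 and 6 it was 0.67 (KCS1) to 0.78 (AT2G45300).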

How the data were processed

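Root protoplasts of Arabidopsis Col-0 were measured by RNA-seq in 97 libraries of TFs and 18 of EV. Per the labels and the study's methods, the authors made the libraries with NEBNext Ultra, sequenced them on a NextSeq 500, aligned reads to TAIR10 with TopHat2 and counted them per gene with GenomicFeatures and GenomicAlignments. The deposited values are raw counts for 33016 gene IDs per library, with totals of 1542961 to 45372240 (median 12336285), and the number of counts limits the precision of genes with few of them. No 2 libraries were identical.

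Here the counts were fitted with edgeR 4.0.16 (R 4.3.3): TMM scaling, a minimum of 10 counts in 3 or more libraries (22883 genes), terms for TF and batch as in the study, the quasi-likelihood F-test with robust fits, and Benjamini-Hochberg adjustment within each TF, with an FDR under 0.05 as threshold. The fit had 76 residual degrees of freedom and a common biological coefficient of variation of 0.132. The SE was taken from the log2 fold change and F. SD is between libraries. The code was tested on simulated data. Groups, batches and replicates came from the labels. The suberin genes and the other gene lists were chosen with earlier results of these data known. Full values per library are given for pairs of gene and TF past the threshold with a log2 fold change past 1 in either direction and a mean of at least 5 CPM in TF or EV, and for others as examples. TFs were named where at least 4 genes passed and where none did, and the others that passed, and list genes that passed with no TF, are named to complete the counts. Examples from the other lists were chosen after their values were seen, among genes that passed. The genes most alike had the highest Pearson correlation with the mean of the standardized suberin genes. The alternatives were DESeq2 1.42.0, its size factors, no filter, a replicate block, other sets of libraries in the fit, leaving out replicates, and leaving out the suberin gene on the study's list of CHX-responsive genes. Leaving out DIV1 replicate 3 was added after the data were seen. Gene positions and sequences are from RefSeq on TAIR10.1.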

Additional observations from a re-analysis of the deposited data

How the results depend on the processing

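Of the 65 pairs that passed, 14 did so under all 13 alternatives and none changed sign. Leaving out replicates, of every group, of EV only or of DIV1 (replicate 3), moved the number of higher pairs from 29 to between 7 and 41 and that of lower pairs from 36 to between 14 and 36. Without replicate 2 of every group, 21 of the 65 pairs were kept (7 higher, 14 lower), and 4% of all pairs of gene and TF passed in place of 9.58%. Without EV replicate 2 there were 15 higher pairs, without EV replicate 3 there were 16, and without replicate 1 of every group there were 23 lower pairs. DESeq2 gave 34 higher and 47 lower pairs, among them 7 higher with MYB61 in place of 4, and its size factors in edgeR gave 28 and 37, with the median of all genes moved by at most 0.067 on the log2 scale. No filter gave 24 and 34, TFs fitted with the EV of their own batch alone gave 39 and 48, batches 1 to 4 and 5 to 6 fitted apart gave 34 and 33, and without CYP86B1 there were 24 and 33.

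The replicate block within batch gave 44 higher and 50 lower pairs and kept 64 of the 65, losing ASFT with HAT22. The replicate numbers do not pair libraries by the labels. The deviations of TF and EV libraries with the same number had r from -0.05 to 0.16 (median 0.01), with 7 of 97 over 0.1. Of the 97 libraries, 47 correlated best with the EV of their own number, among 3 EV libraries each. The summed level of the 10 genes was highest in replicate 1 in 28 of 37 groups of 3, and in 21 of the 25 in batches 1 to 4. Whether libraries of the same number share an effect was not tested.

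In batches 5 and 6 the median library held 0 counts of CYP86A1, 3 of CYP86B1, 4 of FAR1, 4 of FAR5, 9.5 of FAR4 and 10 of KCS2, which limits the precision of their values. KCS2, CYP86B1, FAR1, FAR4 and FAR5 each passed with at least 1 TF of these batches, and CYP86A1 with none.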

Other observations

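Relatives of the suberin genes that are known from cutin also moved with some of these TFs. GPAT6, a glycerol-3-phosphate acyltransferase of cutin, had 0 to 0.909 CPM in the EV libraries of batches 5 and 6 and 119 to 311 CPM in those of batches 1 to 4. It was higher with NAP (FDR = 0.000868), at 8, 12 and 23 counts, and with MYB61 (FDR = 0.014), at 13, 7 and 8 counts, against 1, 0 and 0 counts in the EV they share, too few for a fold. GPAT4 was higher with MYB61 (log2 fold change 2.38) and HAT22 (2.04, from 2 libraries) of that batch. Its EV level in batches 5 and 6 was 0.569 to 2.24 CPM, which limits the precision of these folds. CYP86A2, a hydroxylase of cutin, was lower with C2H2 (log2 fold change -1.20), DIV1 (-1.93, and -2.37 without its replicate 3) and LBD37 (-1.84), each of which also lowered GPAT7 and ASFT. The EV level of CYP86A2 was 172 to 299 CPM in batches 1 to 4 and 1.82 to 9.32 CPM in batches 5 and 6, to which DIV1 and LBD37 belong. The tested relatives passed in 8.71% of pairs, 15 higher and 8 lower, near the 9.58% of all genes. GPAT8 passed with HSFB2A alone, and CYP86A4 and BDG1 with no TF.

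Among markers of other cells, those of the root cap passed in 19.7% of pairs (12 higher, 1 lower), those of phloem in 25.8% (3 and 14), those of xylem in 9.09% (2 and 7), those of pericycle and stele in 18.2% (6 and 12), those of root hairs in 7.07% (4 and 3), the cortex marker PEP in 6.06% (1 and 1) and those of the leaf in 1.52% (0 and 1). The root cap factor SMB was higher with 10 TFs, among them ERF056 (log2 fold change 2.92), HSFB2A (2.39) and C2H2 (1.71). These TFs all belong to batches 1 to 4, where SMB had 0 to 1.25 CPM in EV, so that the folds rest on few counts.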
